A study of Mus musculus with 15 samples.

Results

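Mouse cells differentiated towards heart muscle for 25 days were compared with cardiac progenitors at passage 3. The differentiated cells are titled as derivatives of such progenitors, but their titles give no passage of origin. The progenitors, named ieCPCs in the labels, were obtained by cardiac reprogramming of secondary mouse embryonic fibroblasts (MEFs), sorted on day 13 of reprogramming and expanded in culture. RNA sequencing of 15 libraries covered the MEFs, MEFs at day 9 of reprogramming, ieCPCs at passage 3 and at passage 12, and the cardiac derivatives, with 3 libraries in each group. The 6 libraries compared here are the 3 of passage 3 ieCPCs (P3 ieCPCs below) and the 3 of cardiac derivatives (CM derivatives below). All came from cells of one mixed strain background, C57BL/6 and 129J/SvE, and every sample is labelled wildtype. P3 ieCPCs were grown in a basal medium with a supplement abbreviated BACS, which in this study stands for BMP4, activin A, the GSK3 inhibitor CHIR99021 and the FGF receptor inhibitor SU5402. CM derivatives had been moved to a serum-free differentiation medium without a labelled sorting step, so a library can hold more than 1 cell type. In bulk RNA, fewer cells of a type and less RNA per cell cannot be told apart. The labels do not say that the 3 libraries of a group were separate cultures. The p-values weigh the difference between groups against the variation of these libraries within a group, and that variation may be technical.

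Heart muscle cells contract through sarcomeres, in which myosin thick filaments pull on actin thin filaments anchored at Z-discs, and calcium released from the sarcoplasmic reticulum starts each contraction. As cardiac progenitors differentiate they leave the cell cycle, switch on contractile and calcium-handling genes, exchange early isoforms of several proteins for cardiac ones, and raise their mitochondrial capacity. Early cardiac mesoderm is marked by Eomes, a T-box transcription factor of the primitive streak, and dividing cells by Plk1, a mitotic kinase.

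The count table held 37991 genes, and each library's total count lay between 23340121 and 24091244 in P3 ieCPCs and between 28443230 and 29996464 in CM derivatives. Mitochondrial transcripts, ribosomal RNA included, took 20.8% to 21% of the counts in P3 ieCPCs and 53.4%, 52% and 59.4% in CM replicates 1, 2 and 3, which left 12178439 to 14250457 nuclear counts in each CM library against 18479775 to 19081601 in P3. TMM scaling was therefore used for every level and fold change below, unless another scaling is named. It is a trimmed mean of ratios that sets the bulk of genes level between libraries. A level in CPM (counts scaled to a library of 1000000 counts) is after that scaling. The CM replicates were further apart than the P3 replicates. On raw counts without TMM scaling, chi-square per degree of freedom was 10.5 to 40.8 between CM pairs and 2.31 to 3.08 between P3 pairs. Differences in mitochondrial share enter that statistic. After TMM scaling, the SD over genes of the log2 difference was 0.237 to 0.316 between CM pairs and 0.156 to 0.161 between P3 pairs. Before taking logs, 1 CPM was added to each level. CM replicate 3 was the most distant by both measures.

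Of the 16329 genes with enough counts to test, 10439 (63.9%) differed between CM derivatives and P3 ieCPCs at an adjusted p under 0.05 in edgeR's quasi-likelihood test. A gene past this threshold is called higher or lower below. Higher calls in CM derivatives numbered 5160 (31.6% of the tested genes) and lower calls 5279 (32.3%). The median log2 fold change over all tested genes was -0.03, with quartiles at -0.46 and 0.56. Against a 2-fold change, 1837 genes (11.2%) were higher and 950 (5.82%) lower, 2787 (17.1%) in all, and the CPM ranges of the groups did not overlap for 11401 genes (69.8%). With so many genes called, the size of a change and the share of a list moving in one direction carry more information than a call alone. Of 5 marker genes, the cardiomyocyte genes Myh6, Myl2 and Pln were higher, and Plk1 and Eomes lower, each with no overlap between groups. These markers were given together with the comparison, so they are not an independent check of the labelled identity.

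**Figure D1:**
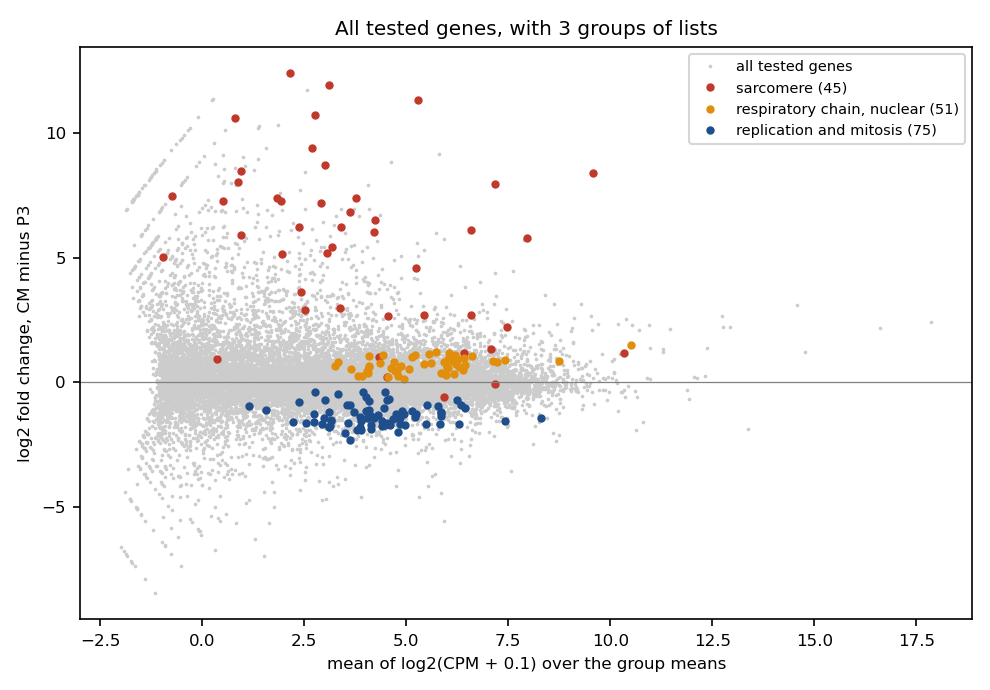
Log2 fold change (CM derivatives minus P3 ieCPCs) against mean log2(CPM + 0.1) for every tested gene, with sarcomere, respiratory chain and cell cycle genes coloured. The sarcomere genes lie mostly far above 0, the nuclear respiratory chain genes in a narrow band above 0, and the replication and mitosis genes below it.

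Thick filament genes were higher in CM derivatives in 11 of 11, with a median log2 fold change of 6.23. Myh6, the alpha myosin heavy chain of the heart (chromosome 14, 55560758 to 55585764, mm9), had 0.963, 0.591 and 0.604 CPM in the P3 replicates and 2115, 1234 and 2275 CPM in the CM replicates, a log2 fold change of 11.34 ± 0.32 (SE; edgeR adjusted p = 1.33e-09). Myh7, the beta myosin heavy chain, moved from 0.0357, 0.104 and 0.142 CPM to 335, 241 and 576 CPM (11.91 ± 0.51, edgeR adjusted p = 2.1e-08). Both genes were under 1 CPM in every P3 library and high in every CM library, with CM replicate 2 the lowest. Myl2, the ventricular regulatory light chain, had 2 counts over the 3 P3 libraries and 173, 107 and 194 CPM in the CM libraries, a ratio of 6615 with a 95% counting interval of 1831 to 54628 (such intervals cover counting error only). Myl3, the essential light chain of ventricles, went from 0.0713, 0.174 and 0.107 CPM to 240.2, 159.7 and 227 CPM (10.73 ± 0.27). Myl7 and Myl4, the corresponding light chains of the atria, already had 0.817 to 1.68 and 2.1 to 2.39 CPM in P3 ieCPCs, and rose by 6.23 ± 0.39 and 6.02 ± 0.33 on the log2 scale. Mybpc3, the cardiac myosin-binding protein that links thick filaments, rose 423-fold to 142, 108 and 190.4 CPM. The smallest change of the group was in Myh7b, at a log2 fold change of 2.88.

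Among the thin filament genes, 8 of 11 tested were higher and none lower, with a median log2 fold change of 2.99. Actc1, cardiac actin, had 9.81, 8.82 and 8.49 CPM in P3 ieCPCs and 1972, 1395 and 3363 CPM in CM derivatives, a 248-fold difference (7.95 ± 0.34, edgeR adjusted p = 2.06e-08). Tnnt2, the cardiac troponin T that ties the calcium switch to the filament, went from 36.2, 33.5 and 29.9 CPM to 1914, 1373 and 2265 CPM (5.80 ± 0.19). Tnni3, the adult cardiac inhibitory troponin, went from 1.46, 1.04 and 0.782 CPM to 149, 93 and 134 CPM, a 114-fold rise. Actc1, Tnnt2 and Tnni3 had their lowest CM level in replicate 2. Tnni1, the inhibitory troponin of fetal heart and slow muscle, rose 6.29-fold to 57.8, 34.9 and 83.3 CPM, and Tpm1, the main tropomyosin of heart, 2.21-fold. The 3 tested members that were not called were Tpm2 (log2 fold change -0.08), Tmod1 (0.20) and Acta1, skeletal actin (0.857 ± 0.238 against 1.64 ± 1.09 CPM, SD, n = 3, edgeR adjusted p = 0.134). Tnnc1 had too few counts to test and shares 99% of its exon bases with a duplicate entry of the annotation, so its level is uncertain.

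Z-disc, titin and M-band genes were higher in 22 of 23 and lower in 1, with a median log2 fold change of 6.22. Ttn, the giant protein that spans from Z-disc to M-band, had 42.7, 36.7 and 43.8 CPM in P3 ieCPCs and 13602, 9149 and 19248 CPM in CM derivatives, a 341-fold difference (8.41 ± 0.30, edgeR adjusted p = 5.49e-09). Myoz2, a Z-disc partner of calcineurin, had 1 count in all P3 libraries and 23.8, 17.1 and 38.9 CPM in the CM libraries, a ratio of 2214 (95% counting interval 397 to 87503). Myom2, an M-band protein, rose 667-fold and Smpx, a small muscle protein, 359-fold. The log2 fold change of Myom2 was 9.38 and became 10.25 without P3 replicate 2, and the single P3 count of Myoz2 lay in P3 replicate 1, without which that group has none. Ttn, Myoz2, Myom2 and Smpx had their lowest CM level in replicate 2. Actn2, the sarcomeric alpha-actinin, rose 90.5-fold, Ankrd1, a cardiac stress-responsive ankyrin-repeat protein, 68.3-fold, and Des, the muscle intermediate filament, 6.44-fold. The gene that fell was Obsl1, an obscurin-like cytoskeletal adaptor, from 72.9, 73.8 and 74.5 CPM to 49.9, 48.8 and 48.5 CPM, a 1.5-fold difference. The summed CPM of the thick filament genes was 8.83 ± 0.71 in P3 ieCPCs (SD, n = 3) and 3281, 2080.2 and 3941 in the CM replicates.

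**Figure D2:**
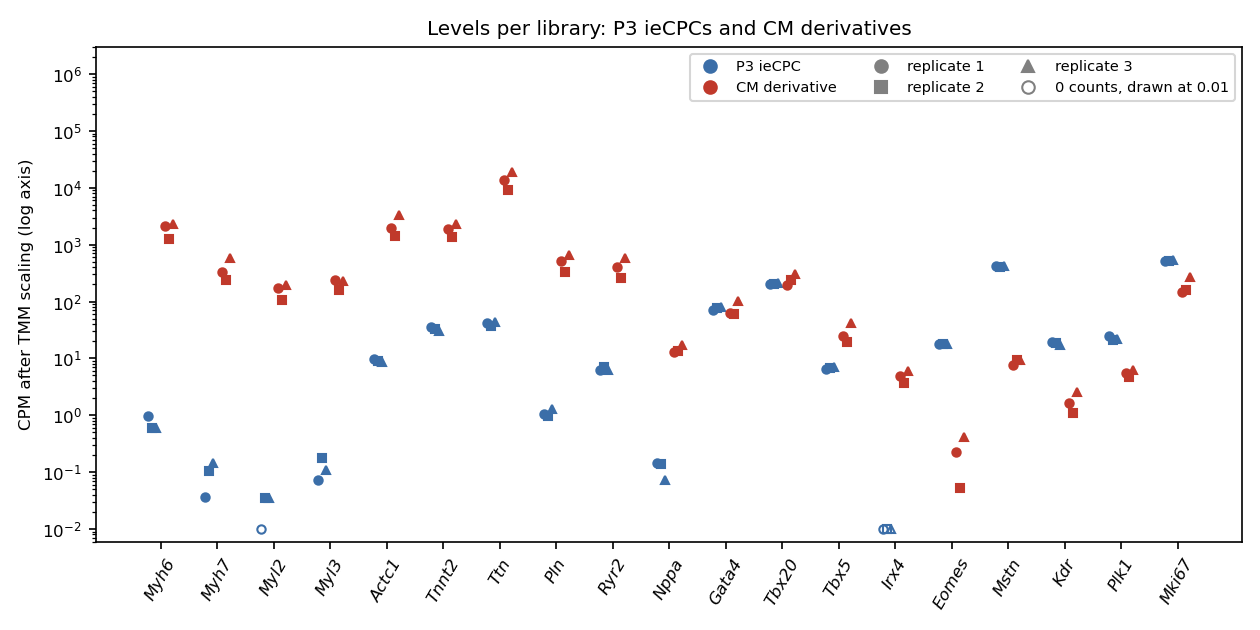
CPM on a log axis for 19 genes in each P3 and CM library, with 0 counts drawn at 0.01 CPM. The contractile and calcium genes lie far apart between groups, Gata4 and Tbx20 overlap, and Eomes, Mstn, Kdr, Plk1 and Mki67 are lower in every CM library.

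The promoters of 3 sarcomere genes are shown because these genes were among the largest rises and each window holds a sequence known from muscle promoters. Each is the 250 bases before the RefSeq start on the GRCm38.p6 build, 5′ to 3′ on the gene's strand, and capitals mark matches to CATTCC on either strand (the MCAT motif, which TEAD factors bind), to CTANNNNTAG (the MEF2 motif) or to the CArG box, which serum response factor binds. The windows lie at chr14:54966608-54966857 (minus strand) for Myh6, chr9:110763428-110763677 (plus strand) for Myl3 and chr2:91117894-91118143 (plus strand) for Mybpc3.
Myh6: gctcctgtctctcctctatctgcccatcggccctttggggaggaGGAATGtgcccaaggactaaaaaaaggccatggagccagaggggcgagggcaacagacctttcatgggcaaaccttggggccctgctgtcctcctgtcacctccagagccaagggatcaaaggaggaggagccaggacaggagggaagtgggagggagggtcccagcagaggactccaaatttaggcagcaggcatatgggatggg
Myl3: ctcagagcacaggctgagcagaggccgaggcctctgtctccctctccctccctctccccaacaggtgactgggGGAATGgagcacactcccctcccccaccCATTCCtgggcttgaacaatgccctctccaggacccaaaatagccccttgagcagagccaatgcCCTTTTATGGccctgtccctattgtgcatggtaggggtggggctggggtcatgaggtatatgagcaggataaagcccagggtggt
Mybpc3: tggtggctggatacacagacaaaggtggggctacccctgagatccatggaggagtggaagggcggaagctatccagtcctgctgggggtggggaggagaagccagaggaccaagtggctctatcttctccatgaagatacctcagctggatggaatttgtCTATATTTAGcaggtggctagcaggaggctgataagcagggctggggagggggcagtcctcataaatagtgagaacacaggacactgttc
RefSeq windows were found for 38 of the 46 sarcomere genes, 50 windows in all. Of these, 16 (32.0%) held CATTCC, 9 the MEF2 motif and 8 (16.0%) a CArG box. Of all 32851 windows of this length, 12.6% held CATTCC, 1052 the MEF2 motif and 1.47% a CArG box. The letters AGATAA, known from sites of GATA factors, were in 10 of the 50 sarcomere windows and in 9.99% of all windows, and TATAAA in 10.0% and 12.4%. These are matches of letters, counted on both strands where the motif differs between them, and genes with several starts contribute several windows.

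Genes of calcium handling were higher in 18 of 21 and lower in 3, with a median log2 fold change of 2.24. Pln, phospholamban, the inhibitor of the calcium pump of the sarcoplasmic reticulum, had 1.03, 0.973 and 1.28 CPM in P3 ieCPCs and 521, 327 and 651 CPM in CM derivatives, a 454-fold difference (8.83 ± 0.30, edgeR adjusted p = 4.83e-09). The pump itself, Atp2a2, was already at 223, 227 and 223 CPM and reached 1365, 906 and 1788 CPM, a 6.03-fold rise. The inhibitor thus changed far more than its pump. Ryr2, the cardiac calcium release channel, went from 6.35, 7.05 and 6.29 CPM to 406, 257 and 579 CPM (63-fold), Trdn, the triadin that anchors it, rose 341-fold, and Casq2, the calcium buffer of the store, 124-fold. Sln, sarcolipin, an inhibitor of the pump found in atria, had no count in P3 ieCPCs and 2.61, 3.28 and 6.21 CPM in CM derivatives, at least 112-fold higher when the P3 group is set at 3 counts. The sodium-calcium exchanger Slc8a1 rose 4.1-fold and the L-type channel subunit Cacna1c 2.74-fold. Among the genes that fell were Fkbp1b, a stabiliser of the release channel (2.34-fold), and Mcu, the mitochondrial calcium uniporter (1.5-fold).

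Ion channel and gap junction genes were higher in 15 and lower in 3 of the 21 tested members of 23, with a median log2 fold change of 2.66. Kcnj11, a pore subunit of ATP-sensitive potassium channels, had 1 count in P3 ieCPCs and 5.22, 4.32 and 6.09 CPM in CM derivatives (ratio 439, 95% counting interval 78.1 to 17400.1). That count lay in P3 replicate 1, and the log2 fold change of Kcnj11 was 8.24 with it and 9.85 without. Kcnj5, a subunit of the acetylcholine-gated potassium channel, rose 80.0-fold, and Gja1, the connexin of working myocardium, 4.8-fold. Channels tied to early or nodal heart went the other way or did not pass the test: Cacna1g, a T-type calcium channel, fell 3.28-fold from 31.8 to 9.75 CPM, Cacna1d fell 1.4-fold, and Hcn4, the pacemaker channel, had a log2 fold change of 0.03. Intercalated disc genes, which couple neighbouring muscle cells, were higher in 9 of 10 with a median of 0.85, led by Ctnna3, the alpha-T catenin (9.28-fold), Dsp, desmoplakin (2.57-fold), and Pkp2, plakophilin 2 (2.4-fold), while the N-cadherin gene Cdh2 did not pass the test (-0.12). Leaving out CM replicate 3 gave 1 lower call in this list.

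Receptors of the heart were higher in 8 and lower in 2 of 11 tested, with a median log2 fold change of 1.66. Adrb1, the main cardiac beta-adrenergic receptor, rose 22.9-fold, Adra1b, an alpha1-adrenergic receptor, from 0.211 to 2.64 CPM, Adora1, an adenosine receptor, 5.53-fold, and Chrm2, the muscarinic receptor that slows the heart, 5.33-fold. The log2 fold change of Adrb1 was 4.52, and became 3.87 without CM replicate 3 and 5.83 without P3 replicate 2. The endothelin receptors moved in the opposite direction, with Ednrb 7-fold lower (70.3 to 10.1 CPM) and Ednra 2.31-fold lower. Of the natriuretic peptide genes, Nppb had 4 counts over the P3 libraries and 11.2, 10.4 and 19.1 CPM in the CM libraries, a 257-fold difference, and Nppa went from 0.118 to 14.5 ± 2.11 CPM (6.87 ± 0.24). Nppa shares 61.5% of its exon bases with a predicted gene, so its level is uncertain. Corin, the protease that activates the peptides, had a log2 fold change of 0.49 (edgeR adjusted p = 0.0417), and its call was lost under 6 alternatives. Muscle chaperone and assembly genes were higher in 10 of 11 with a median of 1.60, among them Smyd1, a methyltransferase that assists myosin assembly (1.45 to 183 ± 64.3 CPM), and Unc45b, a myosin chaperone (log2 fold change 4.06).

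Cardiac transcription factors moved far less than the contractile genes, with 16 higher and 8 lower of the 32 tested members of 39 and a median log2 fold change of 0.36. Gata4, which acts from progenitor to muscle, had 69.7, 78.2 and 79.4 CPM in P3 ieCPCs and 62.9, 60.3 and 101 CPM in CM derivatives (-0.02, edgeR adjusted p = 0.918), and its groups overlapped. Tbx20, a T-box factor of developing myocardium, had 202, 206 and 210.2 CPM against 197, 242 and 307 CPM (0.27, edgeR adjusted p = 0.0891). Gata6, Mef2c, Isl1, Zfpm2, Meis2 and Prrx1 did not pass the test either. For these factors no change was called, which does not show equal levels, and the ranges of Gata4 and Tbx20 overlapped. Tbx5, a factor of the first heart field, went from 6.46, 6.64 and 6.93 CPM to 24.4, 19.2 and 41.1 CPM (2.08 ± 0.24), Nkx2-5, the early cardiac homeobox factor, from 0.178, 0.347 and 0.107 CPM to 2.11, 1.61 and 3.08 CPM (3.38 ± 0.41, edgeR adjusted p = 3.88e-05), and Myocd, the coactivator of serum response factor, from 4.49 ± 0.42 CPM to 21.4, 18.4 and 51.7 CPM (2.75 ± 0.36). Irx4, a ventricular homeobox factor, had no count in P3 ieCPCs and 4.94, 3.75 and 5.97 CPM in CM derivatives, at least 137-fold higher. Hopx, a homeodomain protein of differentiating myocytes, rose 17.3-fold and Irx3 and Irx5, relatives of Irx4, 19.4-fold and 13.6-fold. The falls were led by the Notch-responsive repressors Heyl, from 38.6, 39.2 and 36.3 CPM to 1.78, 1.92 and 2.59 CPM (-4.19 ± 0.12), and Hey1 (11.7 to 1.02 CPM), followed among others by Tbx3, a T-box repressor of the conduction system (20.1 to 4.79 CPM), Hey2, Tbx2, Hand2 and Foxc1.

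Genes that mark chambers were set side by side. Atrial genes were higher in 8 and lower in 1 of 10, with a median log2 fold change of 5.39, and ventricular genes higher in 5 and lower in 1 (Hey2) of 6, with a median of 6.28, or 4.92 when genes without P3 counts are placed at their lower bound. The lower call among the atrial genes was absent when CM replicate 1, CM replicate 2 or P3 replicate 3 was left out. Genes of the conduction nodes were higher in 1 and lower in 2 of 6, with a median of -0.13: Tbx18, a factor of the sinus node and epicardium, rose 4.79-fold, while Tbx3 and Cacna1g fell. Most marker genes of both chambers were higher, against 1 of 6 nodal genes.

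Paired isoforms of the same protein allowed a share to be computed within a library, per kilobase of exon. Tnni3 took 12.8%, 8.56% and 7.02% of the sum of Tnni3 and Tnni1 in the P3 libraries and 69.5%, 70.3% and 58.7% in the CM libraries. Myl3 took 15.5% ± 6.07 (SD, n = 3) of the sum of Myl3 and Myl4 in P3 ieCPCs and 83.9% ± 4.92 in CM derivatives. Myl2 took 0.789% of the sum of Myl2 and Myl7 in P3 ieCPCs and 45.9%, 33.6% and 30.2% in the CM replicates. In these 3 pairs the adult or ventricular member gained share in every CM library. The balance of the myosin heavy chains differed by less than the spread between P3 libraries, with Myh6 at 90.2% ± 6.34 of the sum of Myh6 and Myh7 in P3 ieCPCs, where both were near 0, and 86.9% ± 2.68 in CM derivatives. In energy metabolism, the muscle form of cytochrome c oxidase subunit 6A, Cox6a2, went from 0.0841% ± 0.146 to 44.4% ± 8.58 of the sum with Cox6a1. The heart fatty acid-binding protein Fabp3 went from 18.5% ± 7.07 to 78.2% ± 7.4 of the sum with Fabp5, and the muscle enolase Eno3 from 46.4% ± 2.26 to 85.5% ± 3.19 of the sum with Eno1. The muscle phosphoglycerate mutase Pgam2 went from 9.46% ± 0.683 to 39.3% ± 5.13 of the sum with Pgam1. Muscle forms thus gained share in metabolism as well as in the filaments. Cox7a1 and Cox8b, muscle forms of other subunits of that enzyme, went from 3.56% ± 1.02 to 22.2% ± 0.241 and from 1.27% ± 0.741 to 18.4% ± 3.32 of the sums with Cox7a2 and Cox8a. Ckm, muscle creatine kinase, went from 0.0623% to 35.8% ± 8.67 of the sum with the brain form Ckb, but shares 31.9% of its exon bases with another gene. The muscle phosphofructokinase Pfkm moved in the opposite direction, from 72.7% ± 1.91 to 51.7% ± 1.57 of the sum with Pfkp, and the heart form of the ADP/ATP carrier, Slc25a4, from 65.5% ± 0.434 to 59.9% ± 1.28 of the sum with Slc25a5. These shares are descriptions, without a test of their own. Length here is that of all annotated exons of a gene, not of the transcript expressed. A share within a single group therefore depends on the annotation, while the direction of its change between groups does not. Myl3 has 1306 exon bases against 4637 for Myl4, and Fabp3 823 against 3567 for Fabp5. Myl2, at 1950 against 590 for Myl7, goes the other way.

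**Figure D3:**
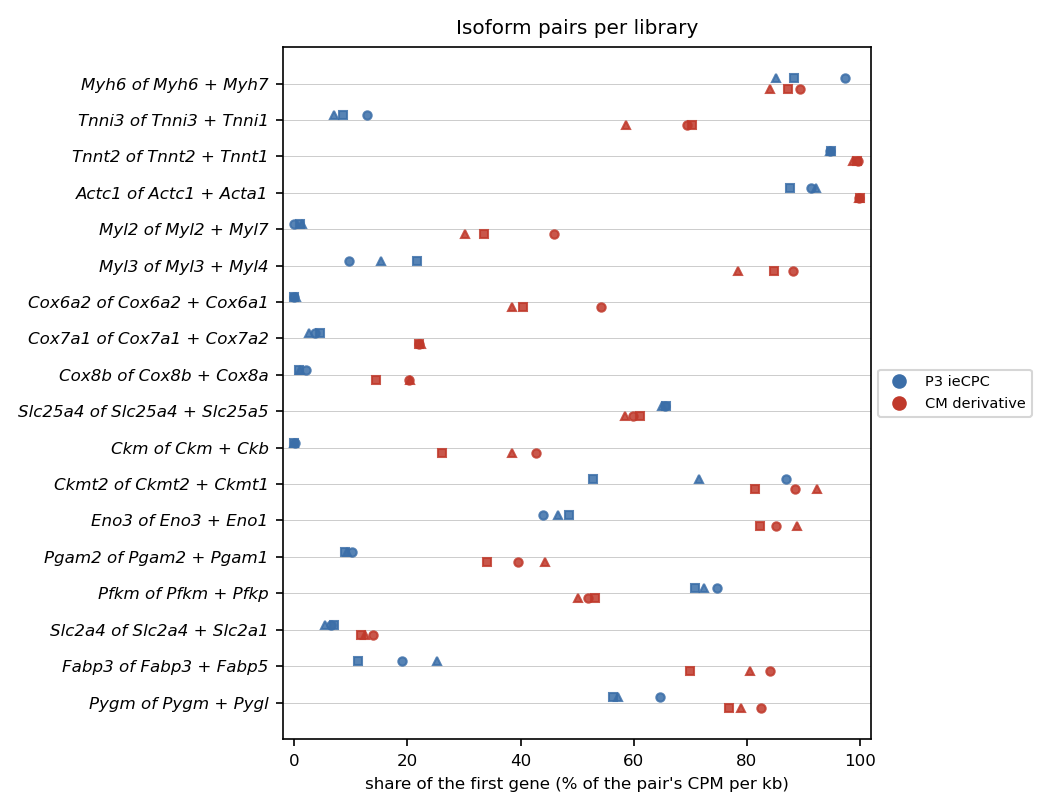
Share (%) of the first-named gene in 18 isoform pairs, per kilobase of exon, with a point for each P3 and CM library. Most muscle or adult members gain share in all 3 CM libraries, while Myh6 stays above 80% in both groups and Pfkm and Slc25a4 lose share.

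Nuclear genes of the respiratory chain were higher in 49 of 51 and lower in none, with a median log2 fold change of 0.72 and no member above 1.47. Atp5b, the catalytic subunit of ATP synthase, rose 2.76-fold from 874 to 2414 CPM, Cycs, cytochrome c, 2.32-fold, and Cyc1, a cytochrome of complex III, 2.24-fold. The change in this group was thus small in each gene and nearly uniform in direction. The 15 tested genes of the mitochondrial genome rose by 1.87 or more on the log2 scale, with a median of 2.33. The mitochondrial oxidase subunit mt-Co1 had 8458, 8367 and 8145 CPM in P3 ieCPCs and 73551, 59271 and 81040.0 CPM in CM derivatives, an 8.56-fold rise. Mitochondrial RNA therefore rose more than the nuclear genes whose products it works with. Its share of the library was highest in CM replicate 3, and with all mitochondrial genes left out of the scaling and the fit 10406 genes were called.

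Fatty acid uptake and oxidation genes were higher in 28 and lower in none of the 32 tested members of 34, with a median log2 fold change of 1.06. Cd36, a fatty acid transporter, had 1.61, 1.91 and 1.71 CPM in P3 ieCPCs and 75.9, 48.5 and 89.5 CPM in CM derivatives, a 40.8-fold rise. Fabp3 rose 17.5-fold, Ppargc1a, a coactivator of mitochondrial genes, 14.9-fold, Pdk4, which restrains glucose oxidation, 11.8-fold, and Lpl, the lipase that frees fatty acids from lipoproteins, 8.78-fold to 1854 ± 166 CPM. Of the enzymes of the oxidation spiral, Acadm, the medium-chain dehydrogenase, rose 2.46-fold and Hadha, a subunit of the trifunctional protein, 1.57-fold. Cpt1a, Acads, Ppard and Plin5 did not pass the test, and Cpt1b was untested. The summed CPM of this list was 3413, 3362 and 3458 in the CM replicates, of which Lpl alone had a mean of 1854. The list's median log2 difference from P3, after adding 0.5 CPM, was 1.08, 0.84 and 1.04 in CM replicates 1, 2 and 3. By that measure replicate 2 was the lowest, as for thick filament genes. Adipocyte genes (higher in 5 of 5 tested, median 4.68) and macrophage genes (higher in 15 of 17, median 4.98) rose in the same libraries, and their part in this result was not tested. Glycolytic genes were higher in 17 and lower in 1 of 21, with a median of 0.84. Aldoc, an aldolase, rose 6.58-fold, Pfkp, the platelet phosphofructokinase, 4.65-fold, and Hk2, the hexokinase of muscle, 3.82-fold, while Eno1, the ubiquitous enolase, fell by 0.19 on the log2 scale (edgeR adjusted p = 0.0239). The lower calls among glycolytic genes numbered 2 without CM replicate 1 and 0 without P3 replicate 1 or P3 replicate 2.

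Genes of DNA replication were lower in all 38 tested members of 39, with a median log2 fold change of -1.21, and genes of mitosis in 37 of 37, with a median of -1.54. Plk1, a mitotic kinase, had 25, 21.4 and 21.9 CPM in P3 ieCPCs and 5.5, 4.68 and 6.27 CPM in CM derivatives, a 4.17-fold fall (-2.06 ± 0.12, edgeR adjusted p = 1.91e-07). Kif23, a kinesin of cytokinesis, went from 54.7, 56.3 and 54.2 CPM to 11.4, 11.8 and 18 CPM (4.02-fold), and E2f7, an atypical E2F repressor, from 28, 27.3 and 26.7 CPM to 4.94, 5.62 and 5.85 CPM (5-fold). The log2 fold changes ran from -2.32 to -0.38 in replication genes and from -2.06 to -0.71 in mitosis genes, and none of them was without counts in CM derivatives. Mki67, the antigen of cycling cells, still had 146, 159 and 269 CPM in the CM replicates, against 514, 516 and 535 CPM in P3. The summed CPM of the mitosis genes was 2401 ± 10.6 in P3 ieCPCs (SD, n = 3), 2722 in P12 ieCPCs, 2039 in MEFs and 707, 744 and 1214 in the CM replicates. CM replicate 3, the highest of its group in mitosis genes, was also the highest in thick filament genes, and the part of cell mixture in this was not tested. Ribosome biogenesis genes were lower in 18 of 20 and higher in none, with a median of -0.49, among them Fbl, fibrillarin, the methyltransferase of ribosomal RNA (1.88-fold).

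A list of cell cycle exit regulators and D-type cyclins did not move as a block, with 9 higher and 4 lower of 17 tested members. Its median log2 fold change was 0.31. D-type cyclins drive the cycle, so the higher calls are not all of antiproliferative genes. Btg2, an antiproliferative factor, rose from 62.5 to 229 CPM, and Rb1, the retinoblastoma protein gene, was also higher. So was the D-type cyclin Ccnd1, which shares 21.3% of its exon bases with another gene, so its level is uncertain. Cdkn1c, an imprinted inhibitor of cyclin-dependent kinases, fell from 425 to 172 CPM, and Rbl1, Cdkn2c and Cdkn1b were also lower. The inhibitors Cdkn1a and Cdkn2a did not pass the test.

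Promoters of Plk1 and Kif23 are shown because many mitotic promoters hold the CCAAT box, which NF-Y binds. Capitals mark CCAAT or, on the other strand, ATTGG, in the 250 bases before the RefSeq start on GRCm38.p6, at chr7:122159185-122159434 (plus strand) for Plk1 and chr9:61946800-61947049 (minus strand) for Kif23.
Plk1: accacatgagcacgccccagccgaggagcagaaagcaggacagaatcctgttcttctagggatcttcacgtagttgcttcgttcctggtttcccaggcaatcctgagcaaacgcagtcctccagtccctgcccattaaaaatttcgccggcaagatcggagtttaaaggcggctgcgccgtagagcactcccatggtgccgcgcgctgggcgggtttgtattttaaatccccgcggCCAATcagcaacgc
Kif23: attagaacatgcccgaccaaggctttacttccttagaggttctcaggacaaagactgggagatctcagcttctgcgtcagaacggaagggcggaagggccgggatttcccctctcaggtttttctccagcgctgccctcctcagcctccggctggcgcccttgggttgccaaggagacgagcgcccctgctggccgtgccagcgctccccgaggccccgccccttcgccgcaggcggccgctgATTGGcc
RefSeq windows were found for 30 of 37 mitosis genes, 31 windows in all, of which 24 (77.4%) held CCAAT and 10 (32.3%) TTTGAA, the core of the cell cycle homology element. Among all windows the shares were 33.8% and 16.0%. In 38 windows of 32 replication genes, CCAAT was in 60.5% and TTTGAA in 15.8%, while CCAAT was in 19 of the 50 sarcomere windows. The window of Birc5, an inhibitor of apoptosis that acts at the spindle, held neither CCAAT nor TTTGAA on either strand. No mitosis window held the MEF2 or CArG letters searched.

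Genes of the primitive streak and early mesoderm were lower in 9 and higher in 2 of the 12 tested members of 25, with a median log2 fold change of -2.02. Eomes had 17.9 CPM in each P3 library and 0.222, 0.052 and 0.422 CPM in the CM libraries, a 78.2-fold fall (-6.29 ± 0.25, edgeR adjusted p = 1.31e-08). Kdr, the receptor of VEGF on cardiovascular progenitors and endothelium, went from 19.4, 18.5 and 16.9 CPM to 1.61, 1.09 and 2.53 CPM, a 10.6-fold fall. Cyp26a1, which degrades retinoic acid, fell 16.1-fold, Cer1, a secreted antagonist of Nodal, 9.5-fold, and Nodal 7.29-fold. Without CM replicate 3 the log2 fold changes went from -6.29 to -6.99 for Eomes, from -4.01 to -5.32 for Cyp26a1 and from -3.25 to -4.66 for Cer1. Eomes, Cer1 and Nodal were thus under 1 CPM after 25 days. Pdgfra, a receptor of cardiac mesoderm that fibroblasts also carry, rose 1.78-fold from 155 to 276 CPM. Snai1, a repressor active in mesenchymal cells, rose 1.52-fold.

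Pluripotency genes were lower in 5 and higher in 2 of the 11 tested members of 15, with a median of -0.79. Lin28a, an RNA-binding protein of embryonic cells, fell 12-fold, Dnmt3b, a de novo DNA methyltransferase, 5.59-fold, Sall4, a zinc-finger factor of embryonic cells, 4.64-fold and Lin28b 4.24-fold. The log2 fold change of Lin28a was -3.58, and -4.37 without CM replicate 2. Myc rose 2.47-fold and Klf4 1.58-fold, and Pou5f1 and Nanog did not pass the test. Oncofetal and imprinted growth genes were lower in 14 and higher in 1 of 17, with a median of -1.17. Igf2bp1, an RNA-binding protein of fetal tissue, fell 4.85-fold from 85.4 to 17.6 CPM, the imprinted Peg3 3.75-fold from 3062 to 816 CPM, and Igf2, a fetal growth factor, 3.67-fold from 20342 to 5542 CPM. H19 and Hmga1 did not pass the test.

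The change of medium removed activin, BMP4, the GSK3 inhibitor and the FGF receptor inhibitor together with 25 days of differentiation, so their parts in any difference cannot be told apart. Activin and nodal target genes were lower in 8 and higher in none of the 10 tested members of 12, with a median log2 fold change of -1.31, and leaving out CM replicate 3 gave 1 higher call. Mstn, myostatin, a secreted relative of activin, had 416 ± 13.4 CPM (SD, n = 3) in P3 ieCPCs and 7.72, 9.31 and 9.41 CPM in CM derivatives, a 47.2-fold fall (-5.56 ± 0.09, edgeR adjusted p = 6.26e-11). Pmepa1 and Skil, feedback inhibitors of SMAD signalling, fell 2.36-fold and 1.9-fold, and Eomes, Cer1 and Nodal are also members of this list. Wnt target genes were lower in 7 and higher in 4 of the 15 tested members of 18, with a median of -0.40. The higher calls included Tnfrsf19 and Notum, a secreted Wnt inhibitor. The call of Notum was lost without CM replicate 2, P3 replicate 1 or P3 replicate 3. Notum also shares 38.1% of its exon bases with other genes, so its level is uncertain. The feedback gene Axin2 fell from 12.7 ± 0.575 CPM (SD, n = 3) to 3.22, 3.38 and 2.95 CPM (3.98-fold), Lef1 and Tcf7, the factors through which beta-catenin acts, 5.74-fold and 2.85-fold, while Lgr5, a receptor of Wnt potentiators, had 8.11 CPM in P3 ieCPCs and 8.35 CPM in CM derivatives and did not pass the test.

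BMP target genes were lower in 5 and higher in 3 of 14, or 35.7% and 21.4%, with a median of -0.14, and without CM replicate 3 there were 5 higher. The lower share is close to the 32.3% of all tested genes. Bambi, a decoy receptor that also stands in the Wnt list, fell 4.43-fold and Msx2, a homeobox target of BMP, 2.41-fold, while Id1 and Id3, immediate BMP targets, did not pass the test. Grem1, a secreted BMP antagonist, went from 0.892, 0.938 and 0.533 CPM to 49.3, 69.8 and 82.9 CPM, an 84.8-fold rise. FGF and ERK target genes were higher in 13 and lower in 1 of the 16 tested members of 17, with a median of 1.21. Dusp6, a phosphatase of ERK, went from 13.1, 14.7 and 11.8 CPM to 41, 27.9 and 35.6 CPM (2.64-fold). The feedback inhibitors Spry1, Spry2 and Spry4 rose 2.88-fold, 2.88-fold and 2.47-fold, the ETS factors Etv1 and Etv5 3-fold and 2.16-fold, and Egr1, an immediate-early gene, 1.49-fold. The gene that fell was Il17rd, an antagonist of FGF signalling (2.33-fold). Of the 4 target lists, most tested members were lower in the activin list and higher in the FGF list, while neither direction held a majority in the Wnt and BMP lists.

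**Figure D4:**
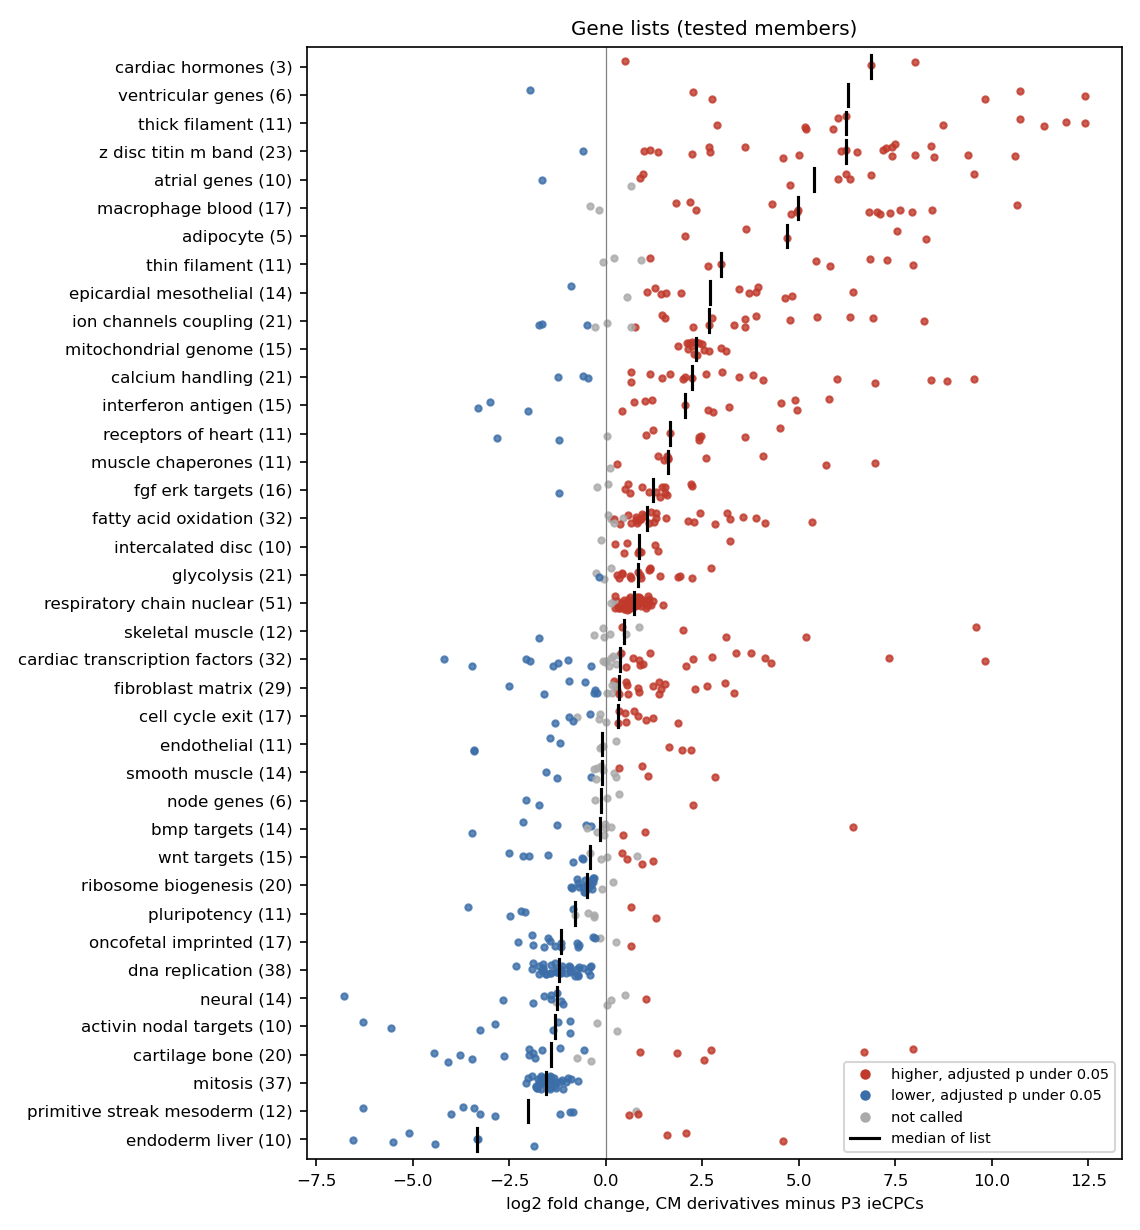
Log2 fold change (CM derivatives minus P3 ieCPCs) of every tested gene in each list, with called genes in red (higher) or blue (lower), others in grey and a bar at the list's median. The thick filament and Z-disc lists have medians above 6, the replication and mitosis lists lie wholly below 0, and the BMP, smooth muscle and endothelial lists have members on both sides.

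Several of the largest changes lay outside these lists. Lcn2, lipocalin 2, a secreted iron-binding protein of innate immunity, had 5 counts in P3 ieCPCs, all in replicate 2 (0.174 CPM), and 222, 239 and 192 CPM in CM derivatives (11.73 ± 0.27, edgeR adjusted p = 4.49e-10). The fitted value for Lcn2 was 15.22 without that library, with no P3 counts behind it. Lilrb4 and Gp49a, neighbouring receptor genes of myeloid cells, had no P3 count and mean levels of 14.4 and 13.7 CPM in CM derivatives, at least 408-fold and 389-fold higher, but their models overlap and the split of reads between them is uncertain. The matrix metalloproteinases Mmp3 and Mmp13 reached 92.5, 80.0 and 74.7 CPM and 79.5, 39.3 and 34.5 CPM, from 5 and 3 counts over the P3 libraries, the ratio for Mmp13 being 1452 (95% counting interval 496 to 7046). Tecrl, an endoplasmic reticulum protein of heart muscle, reached 15.8, 11.1 and 30.6 CPM (ratio 1585, interval 284 to 62679.8). With 1 P3 library left out, the log2 fold changes went from 10.33 to 11.78 for Mmp3 and from 10.29 to 11.09 for Mmp13 (both replicate 2), and from 10.11 to 11.72 for Tecrl (replicate 3). These rises thus include secreted and immune genes beside muscle genes. Among the falls, Zcchc12, a zinc-finger coactivator, went from 26.7 to 0.201 CPM (127-fold), Nnat, the imprinted neuronatin, from 198 to 7.98 CPM (24.7-fold), Ngfr, a neurotrophin receptor of progenitor cells, from 40.2 to 1.54 CPM (26.2-fold), and Hsd11b2, which inactivates glucocorticoids, fell 26.6-fold. The other genes among the 12 largest falls that lie outside the lists were Tmem132c (50.4-fold), Jakmip2 (log2 fold change -5.64, or -6.47 without CM replicate 1), Cnksr2 (32.6-fold), Oprl1, an opioid-related receptor (27-fold), and Fjx1 (24.3-fold).

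Markers of other cells were followed because the labels name no sorting of the derivatives. Epicardial and mesothelial genes were higher in 12 and lower in 1 of 14, with a median log2 fold change of 2.69. Msln, mesothelin, went from 0.678, 0.486 and 0.213 CPM to 45.4, 47.4 and 24.7 CPM (84.6-fold), Upk3b and Bnc1, other genes of mesothelium, rose 15-fold and 15.3-fold, and Wt1, the epicardial transcription factor, 2.44-fold. The summed CPM of this list was 195 ± 7.35 in P3 ieCPCs, 39.6 in MEFs and 726, 802 and 574 in the CM replicates. Macrophage and blood genes were higher in 15 and lower in none of the 17 tested members of 23, with a median of 4.98, or 4.91 with genes lacking P3 counts at their bound. Emr1, the F4/80 antigen of macrophages, had no count in P3 ieCPCs and 7.22, 13.8 and 4.88 CPM in CM derivatives, at least 251-fold higher, and the complement gene C1qb was at least 53.7-fold higher. Of the 23 genes, 8 were at 0 in every P3 library and 1 in every CM library, the haemoglobin gene Hbb-b1. Summed levels were 49.2 in P3 ieCPCs, 435 in MEFs and 206, 266 and 207 in the CM replicates, so the level in CM derivatives lay between those of P3 ieCPCs and the starting fibroblasts.

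Fibroblast and matrix genes were higher in 18 and lower in 7 of 29, with a median of 0.35, and without P3 replicate 2 there were 4 lower. Thy1, a surface antigen of fibroblasts, went from 1.19 CPM to 14.2, 15.1 and 6.51 CPM (10.0-fold), Tcf21, a factor of cardiac fibroblasts and epicardium, rose 6.08-fold and Dcn, decorin, 4.93-fold, while Eln, elastin, fell 5.7-fold. Their summed CPM was 30044 ± 635 in P3 ieCPCs and 43595, 49814 and 40640.3 in the CM replicates, so RNA of matrix genes was abundant in both groups. Smooth muscle genes were higher in 4 (28.6%) and lower in 3 (21.4%) of 14, with a median of -0.10. Both shares lie below the 31.6% and 32.3% of all tested genes. Without CM replicate 1 there were 5 lower smooth muscle genes. Mylk, the kinase of smooth muscle myosin, rose 7.06-fold and Myh11, its heavy chain, 2.13-fold, while Actg2 and Cnn1, enteric actin and calponin, fell 2.96-fold and 2.39-fold. Endothelial genes were higher in 3 and lower in 4 of the 11 tested members of 20, with a median of -0.10, and 4 were not called. These shares, 27.3% and 36.4%, are close to the 31.6% and 32.3% of all tested genes. Flt1 rose 3.91-fold, while Kdr, Erg and Pecam1 fell 10.6-fold, 10.6-fold and 2.71-fold. Cartilage and bone genes were lower in 12 and higher in 6 of the 20 tested members of 22, with a median of -1.43. The cartilage matrix gene Col9a3 fell 21.8-fold from 268 CPM, Acan, aggrecan, 11-fold and Sox9, the chondrocyte factor, 3.72-fold, while the bone genes Ibsp and Spp1 rose 247-fold and 103-fold. Ibsp was uneven among the CM replicates, at 42.8, 5.46 and 7.96 CPM, and its log2 fold change went from 7.95 to 6.48 without CM replicate 1 and to 8.83 without P3 replicate 2.

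The CM replicates differed in the same way over several lists. Replicate 2 had the lowest summed CPM of thick filament genes and the highest of fibroblast, mesothelial and macrophage genes, and replicate 3 the highest of thick filament and of mitosis genes. The part of the other cell types in the differences between groups was not tested. The median log2 difference from P3, computed after adding 0.5 CPM, was 5.39, 5.31 and 6.39 in CM replicates 1, 2 and 3 for the thick filament list, 5.08, 4.43 and 5.54 for the Z-disc list and 2.58, 1.86 and 3.78 for the thin filament list.

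**Figure D5:**
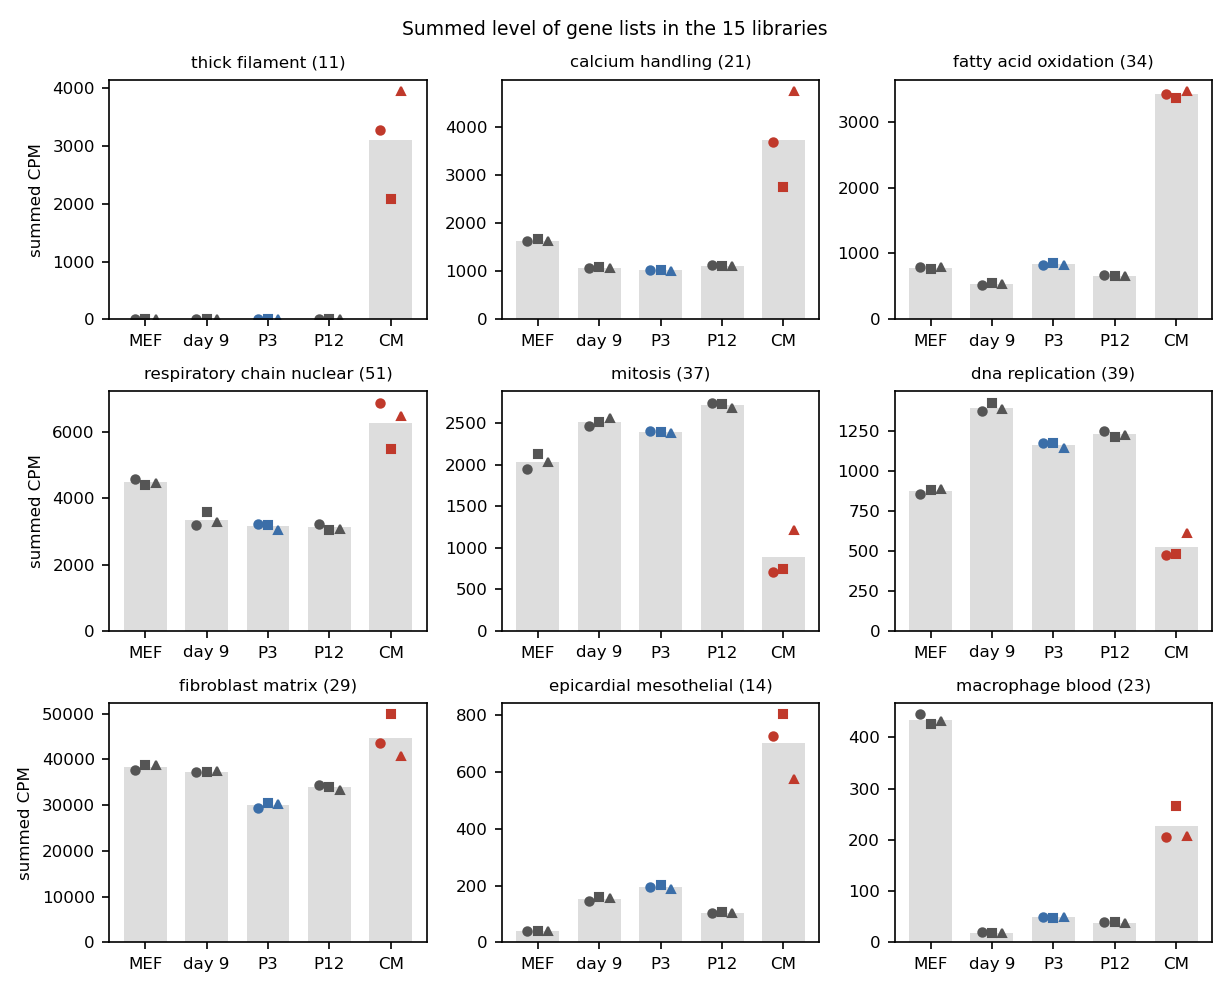
Summed CPM of 9 gene lists in each of the 15 libraries, with a point per library and a bar at each group's mean. Thick filament genes sum to 2080.2 to 3941 CPM in the 3 CM libraries and to at most 14.6 CPM in the other 12, mitosis genes are lowest in CM libraries, and macrophage genes are highest in MEFs.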

How the data were processed

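Per the labels' protocols, each library was prepared from 10 μg of total RNA, and an Illumina GAIIx was the sequencer. Reads were aligned to mm9 with TopHat2 2.0.13 and counted per gene with featureCounts of Subread, per the submitters' processing notes, and the strand setting is not given in the sources used here. The deposited table holds raw counts per gene, which are whole numbers in the file, per the file headers and values. It also holds 30 per-sample columns of normalized values, which were not used.

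Counts of the 3 CM and 3 P3 libraries entered edgeR 4.0.16 (R 4.3.3, limma 3.58.1) with TMM factors from all 15 libraries, filterByExpr on the 6, the quasi-likelihood test and Benjamini-Hochberg adjustment over 16329 genes, called at an adjusted p under 0.05. Only the 6 libraries were fitted, because CM replicates are further apart than P3 replicates. A standard error is the log2 fold change divided by the square root of its F statistic. A gene without counts in a group was placed at 3 counts over that group. An exact permutation test of a single value with 3 against 3 libraries cannot go below p = 0.1. On simulated counts with 200 changed genes the test recovered 55.2%, 74.6% and 98.5% of genes changed 1.5-, 2- and 4-fold. It made 15 false calls, and 15983 genes, changed ones included, were tested. Both groups were simulated with the same dispersion per gene. CM replicates are further apart than P3 replicates, so these rates may not hold for the data.

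Samples were grouped by their titles. The comparison and the 39 gene lists were chosen with earlier results of these data known. Named by rule were the 12 largest rises and falls with at least 10 CPM, the 3 largest of each list and direction with at least 1 CPM, the 5 markers and the isoform pairs. Other named genes, such as Gata4, Tbx5, Nkx2-5, Ttn, Ryr2, Atp2a2 and Mki67, were chosen after their values were seen. Some listed genes are counted in their lists but not reported here by name. Gene positions are as in the table (mm9). Genes that share over 20% of their exon bases with another gene in the table are called uncertain where they are described at length, since unstranded counting can split or merge them, and Ccnd1, Notum, Pax6 and Trf are among them. Alternatives were RLE and upper-quartile scaling, mitochondrial genes left out, 2 other filters, DESeq2 1.42.0, limma voom, a fit of all 15 libraries, a replicate block and each library left out.

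Replicate numbers are shared between groups, and the deviations of same-numbered CM and P3 libraries from their group means correlated at 0.0499, 0.0266 and 0.0915 over genes, so the numbers were not taken to pair samples.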

Additional observations from a re-analysis of the deposited data

How the results depend on the processing

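The number of genes called was 10439 and ranged from 9376 to 10955 when each library was left out in turn. It was 10450 with RLE scaling, 10613 with upper-quartile scaling (4936 higher and 5677 lower), 10406 without mitochondrial genes, 11061 with no filter beyond 1 count, 9697 with at least 1 CPM in 3 libraries, 11462 with all 15 libraries in the model, 9719 with DESeq2 and 10674 with limma voom. Upper-quartile scaling moved the median of all genes to -0.07. The 2-fold test called 2787 genes, 2586 to 3077 with a library left out and 2178 with DESeq2. With a replicate block 10378 genes were called, 5120 higher and 5258 lower, and 2752 passed the 2-fold test. Each library's deviations correlated best with those of its own number, which is a hint from the data and not from the design. The block raised the lower calls among glycolytic genes to 2 and among smooth muscle genes to 5. Of the named genes, 2881 values kept their direction and side of the threshold. Fabp5 had a log2 fold change of 0.11, not called, and between -0.06 (without CM replicate 2) and 0.20 (without CM replicate 1) with a library left out. The calls of Corin, Notum, Eno1, Acta2 and Ckb were lost in 20 values in all, counting each gene under each alternative. Acta1 was called with all 15 libraries (0.90, edgeR adjusted p = 0.0377) and without CM replicate 2 (1.38, edgeR adjusted p = 0.00228). The cause was not tested. List medians moved beyond the spread between replicates in some settings, for ventricular genes to 5.38 with limma voom and for endoderm genes to between -3.74 and -3.10. With mitochondrial genes left out, that genome's list gives no value. Depth limits genes with few counts, such as Nppb and Tcap in P3 ieCPCs.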

Other observations

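Interferon and antigen-presentation genes were higher in CM derivatives in 12 and lower in 3 of the 15 tested members of 16, with a median log2 fold change of 2.04. H2-D1 and H2-K1, class I antigen-presenting molecules, rose from 2.08 to 64.9 CPM (31.1-fold) and from 4.75 to 141 CPM (29.7-fold), Psmb8, a subunit of the immunoproteasome, had a ratio of 64.2 (95% counting interval 21.5 to 316), with a log2 fold change of 5.79 that became 8.65 without P3 replicate 1, and Ifit1, an interferon-induced protein, rose 23.3-fold. The class II genes moved in the opposite direction, with H2-Ab1 10.0-fold, Cd74 8-fold and H2-Aa 4.06-fold lower (log2 fold change -2.02, or -2.86 without CM replicate 1). The summed CPM of this list was 328 ± 9.13 in P3 ieCPCs (SD, n = 3), 874 in MEFs and 1493, 1479.9 and 1286 in the CM replicates. Adipocyte genes were higher in all 5 tested members of 10, with a median of 4.68. Pparg, the main regulator of fat cells, rose from 0.858 to 10.6 CPM, Fabp4, a fatty acid carrier, had a ratio of 359 (95% counting interval 122 to 1748) and a log2 fold change of 8.28 that became 9.09 without P3 replicate 1, and Adipoq, adiponectin, had no count in P3 ieCPCs and 1.01 CPM in CM derivatives, at least 27.9-fold higher. Their summed CPM was 63.9, 68 and 59.6 in the CM replicates against 2.78 in P3 ieCPCs.

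Neural genes were lower in 9 and higher in 1 of the 14 tested members of 17, with a median of -1.27. Dcx, a microtubule protein of young neurons, fell 6.34-fold, Map2, a dendritic protein, 3.67-fold and Ncam1, an adhesion molecule also found on progenitors, from 376 to 157 CPM, while Sox10, a neural crest factor, fell to no counts, at least 10.6-fold lower. Endoderm and liver genes were lower in 7 and higher in 3 of the 10 tested members of 16, with a median of -3.33. Cldn6, a claudin of embryonic epithelium, fell 45.5-fold and Apob, an apolipoprotein, 21.6-fold, while Ttr, transthyretin, rose 4.2-fold and Rbp4, a retinol carrier, 2.99-fold. The log2 fold change of Cldn6 went from -5.51 to -6.82 without CM replicate 3, and that of Ttr from 2.07 to 1.48 without CM replicate 1. Skeletal muscle genes were higher in 5 and lower in 1 of the 12 tested members of 24, with a median of 0.48. The largest rise among them was in Ckm (log2 fold change 9.58), which shares 31.9% of its exon bases with another gene. Myod1, Myf5 and Myf6, transcription factors of that lineage, had at most 1 count in either group.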
